A study of Saccharomyces cerevisiae with 40 samples.

Results

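The 7 genes MFA1, MFA2, STE2, STE6, BAR1, AGA2 and ASG7 are the genes that Saccharomyces cerevisiae, budding yeast, transcribes in cells of mating type a and not in cells of mating type alpha. They were chosen by gene name from the 6462 genes of a table of normalized read counts, and all 7 were found, had a mean of at least 5 normalized reads and were among the 6103 genes tested. Poly(A) RNA had been sequenced from yeast cultures, each overfed with 1 amino acid. The 9 amino acids were methionine (Met) and cysteine (Cys), which carry sulfur, tryptophan (Trp) and phenylalanine (Phe), which are aromatic, threonine (Thr), the branched isoleucine (Ile) and valine (Val), and the small glycine (Gly) and alanine (Ala), and cultures labelled Ctrl were the control. Each of the 10 groups had 4 libraries lettered A to D, and the labels call the letters batches. The labels used here name no strain, genotype, mating type, dose or time, and doses may thus not be matched between amino acids.

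Haploid yeast cells find each other by secreted peptides. Cells of mating type a make the lipid-modified a-factor pheromone and carry the receptor for the alpha-factor made by the other type. When alpha-factor binds that receptor, a G protein and a chain of kinases activate the transcription factor Ste12, which raises mating genes and, with the cell cycle inhibitor Far1, prepares the cell for fusion. In cells of mating type a the a-specific genes are switched on by Mcm1, a general transcription factor that binds at an operator before each gene, and in alpha cells and diploids the alpha2 protein binds on both sides of Mcm1 and turns the genes off.

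The sequences that the 7 genes share were read from the RefSeq R64 genome, in the 600 bases before each start codon. A match to the Mcm1 core, written TTNCCNNNNNNGGNAA and searched on both strands, was found before 7 of 7 genes, against 130 of 6024 genes (2.16%) in the whole genome. The 30-base sites are shown because they are what the 7 genes have in common besides their name, with the 16-base core in capitals, read 5′ to 3′ on the strand of the gene, and with R64 positions.
MFA1 (chrIV:1384942-1384971, plus strand): tgtgtaaTTACCCAAAAAGGAAAtttacat
MFA2 (chrXIV:352163-352192, plus strand): catgtatTTACCTATTCGGGAAAtttacat
STE2 (chrVI:82352-82381, plus strand): atgtaaaTTTCCTAATTGGGTAAgtacatg
STE6 (chrXI:46537-46566, minus strand): ttattgtTTTCCACAAAGGGTAAaggtact
STE6 (chrXI:46478-46507, minus strand): catgtaaTTACCTAATAGGGAAAtttacac
BAR1 (chrIX:322078-322107, plus strand): catgtaaTTACCGTAAAAGGAAAttacatg
AGA2 (chrVII:437102-437131, minus strand): catgtaaTTTCCGAATACGGTAAttacacg
ASG7 (chrX:101906-101935, minus strand): aacgtaaTTACCGCATCGGGAAAtttacat

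The cores began 149 to 291 bases before the start codon, with 8 matches in all, of which 2 lay before STE6. The recognition sequences of the alpha2 protein, TGT within the 7 bases before the core and ACA within the 7 bases after it, stood on both sides of a core in 6 of 7 genes, against 8 of 6024 genes (0.133%). ASG7 had ACA after its core and no TGT before it. The pheromone response element TGAAACA, to which Ste12 binds, was found on either strand before 7 of 7 genes, with 11 copies in all, against 875 of 6024 genes (14.5%). The operator was first defined on genes of this class, so its presence describes the class, and a match is not a measured binding site. The window, the form of the core and the 7-base flanks were set after the data were seen, so these shares are no test. At the planned fixed spacing of TGT and ACA, 4 of 7 genes matched, against 7 of 6024 (0.116%).

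**Figure D1:**
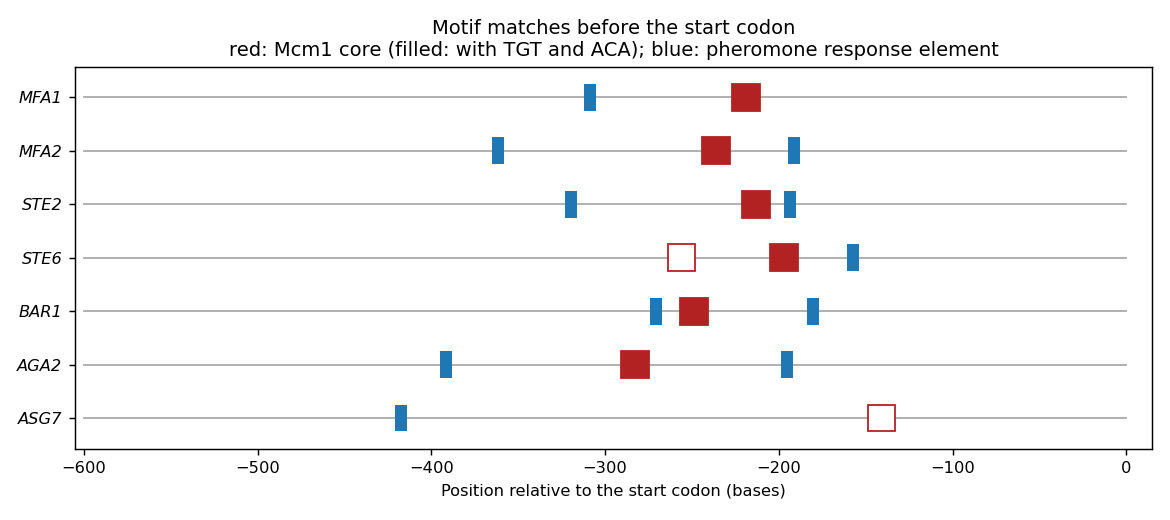
Each line is the 600 bases before the start codon of 1 gene, with position in bases on the horizontal axis; red boxes are Mcm1 cores, filled where TGT and ACA stand on both sides, and blue boxes are copies of TGAAACA. The cores begin 149 to 291 bases before the start codon. The open box before ASG7 lacks TGT, and the open box before STE6, at 264 bases, lacks ACA.

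By estimate, the libraries held 5555868 to 17928687 reads in genes, with a median of 8736150. The values of the 7 genes were whole multiples of 1 read, within 0.1 read, in 40 of 40 libraries. Per 1000 coding bases, the median over the 40 libraries was 5284 normalized reads for STE2, 3672 for MFA2, 1732 for BAR1, 1494 for AGA2, 935 for STE6, 762 for MFA1 and 200 for ASG7. MFA1 had the fewest reads, an estimated 6 to 533 per library, and STE2 the most, 1522 to 14601. STE2, the alpha-factor receptor gene, had 1978 to 10944 normalized reads, against 8.23 to 86.0 for STE3, the a-factor receptor gene of alpha cells. MF(ALPHA)1, the main alpha-factor gene, had 0 to 8.8 normalized reads, MF(ALPHA)2 24.5 to 57.6 and SAG1, the alpha-agglutinin, 241 to 550. The summed level of the 7 a-specific genes was 4426 to 21053 normalized reads per library, against 319 to 638 for these 4 alpha-specific genes. As medians over the 40 libraries, SAG1 (405) stood above AGA2 (394), ASG7 (126) and MFA1 (84.5). Per 1000 coding bases the median was 207 for SAG1, above ASG7, 116 for MF(ALPHA)2, 25.1 for STE3 and 4.73 for MF(ALPHA)1. In bulk RNA fewer cells of a type and less RNA per cell cannot be told apart.

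In Gly all 7 genes were lower than in Ctrl, by 2.22- to 4.97-fold, and in Thr 6 of 7 were lower, by 1.66- to 1.98-fold. Over all genes tested, 12.2% were lower in Gly and 5.33% in Thr. The median log2 difference of the 7 genes was -1.84 in Gly, against -0.02 over all genes tested, and -0.75 in Thr, against 0 over all genes tested. Gly had the lowest mean of the 10 groups for 7 of 7 genes and Thr the next lowest for 7 of 7. Cys had the highest mean for 6 of 7, with BAR1 highest in Trp. Differences below are log2(normalized reads + 1) in the amino acid minus Ctrl, with the standard error (SE) from limma and p-values adjusted by Benjamini-Hochberg over the 6103 genes, and levels are normalized reads, as mean ± SD with n = 4. All 9 comparisons share the 4 Ctrl libraries.

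**Figure D2:**
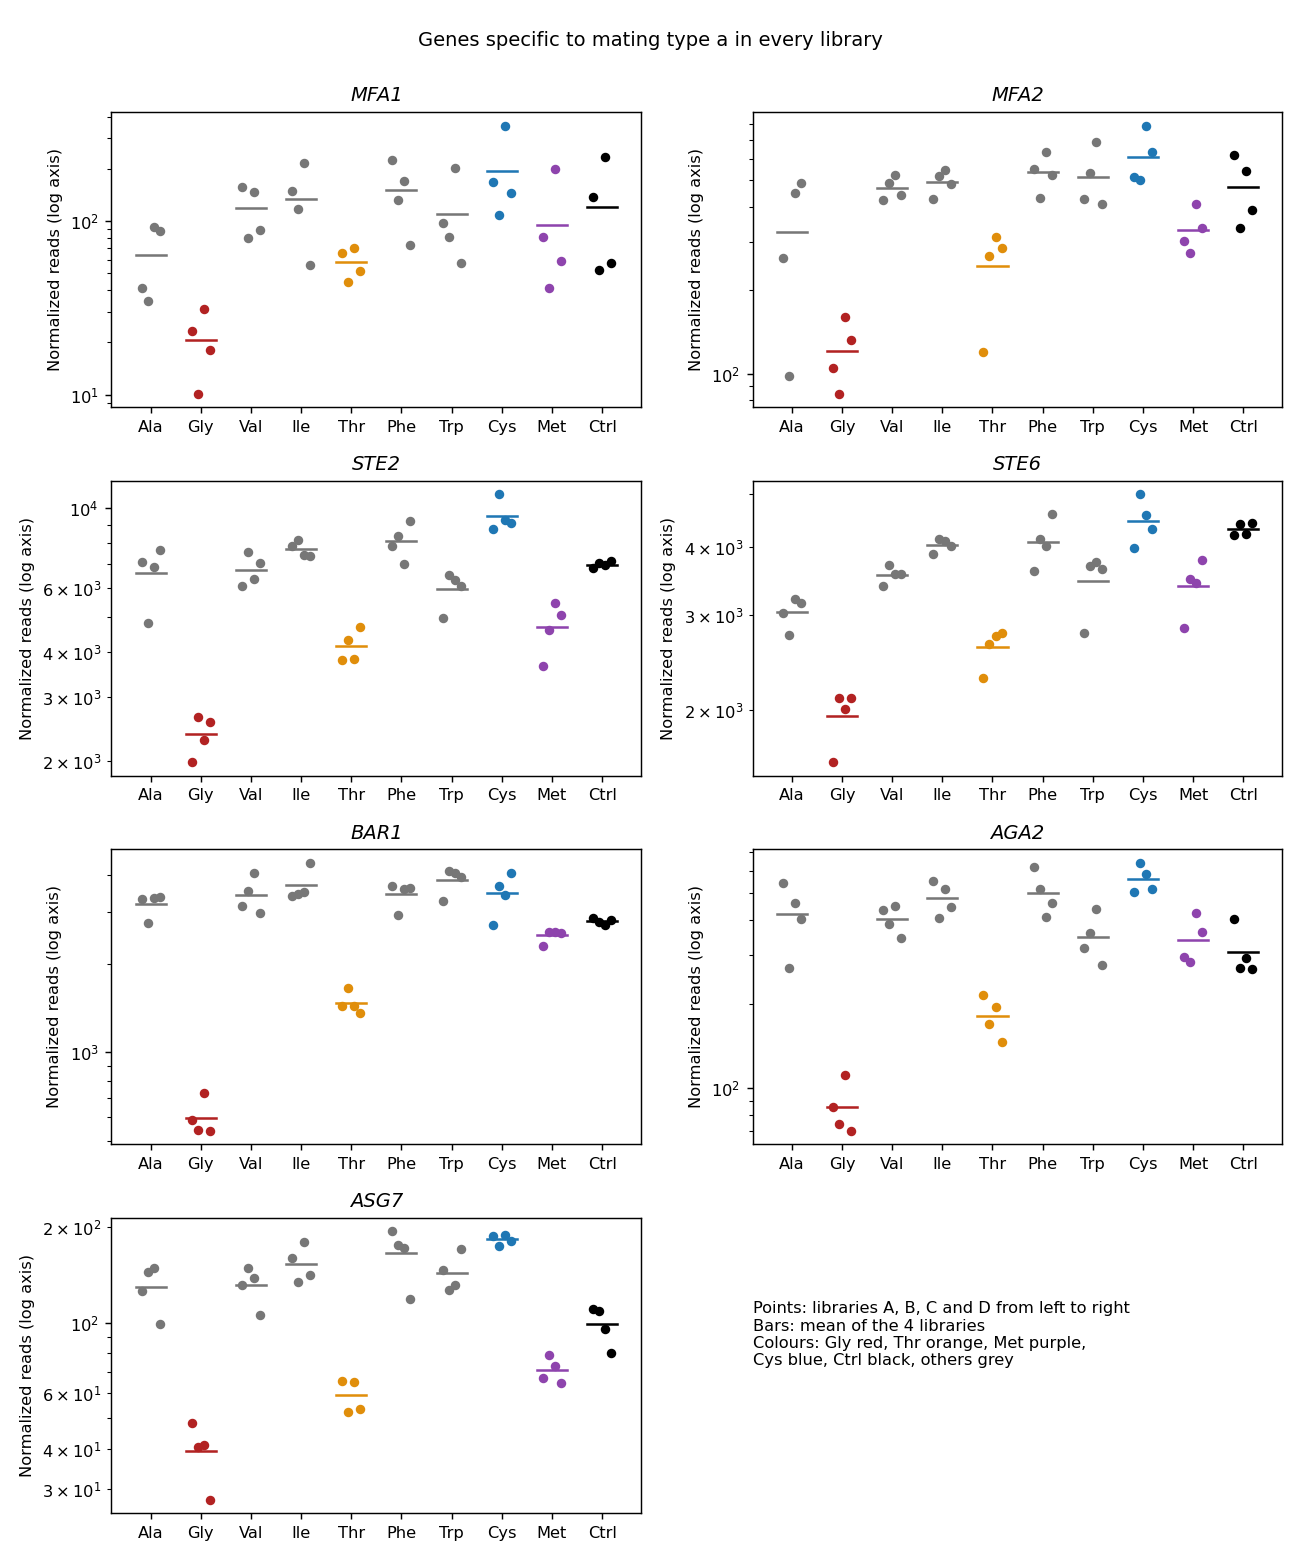
Normalized reads of each of the 7 genes on a log axis, with 1 point per library, a bar at the mean of the 4 libraries of a group and Ctrl at the right. Gly (red) has the lowest mean and Thr (orange) the next lowest for 7 of 7 genes, and for 6 of 7 every Gly library lies below the other 36 libraries.

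MFA1 encodes an a-factor precursor, and its libraries A to D had 23.4, 10.1, 31.1 and 18.1 normalized reads in Gly, against 138, 52.6, 233 and 57.0 in Ctrl. Every Gly library lay below every Ctrl library and below the other 36 libraries. The mean was 20.7 ± 8.81 in Gly and 120.0 ± 85.1 in Ctrl, a fall of 4.97-fold (log2 difference -2.31 ± 0.49, adjusted p = 0.000555). Within the letters the difference was -2.87 to -1.60. The Gly values rest on an estimated 6 to 55 reads per library. In Thr MFA1 had 65.4, 44.5, 70.3 and 51.7 normalized reads, which overlapped Ctrl, and the difference of -0.79 ± 0.49 did not pass (adjusted p = 0.335, 95% interval -1.78 to 0.20), though it was below 0 in all 4 letters. The widest interval of the 7 genes belonged to MFA1, and none of its other differences from Ctrl passed: its means there were 194 ± 110.0 in Cys, 150.0 ± 63.8 in Phe, 135 ± 66.3 in Ile, 119 ± 39.4 in Val, 109 ± 63.9 in Trp, 95.5 ± 72.4 in Met and 64.1 ± 30.2 in Ala. With the letter as a replicate block MFA1 passed as lower in Ala (-0.75 ± 0.49 without the block, adjusted p = 0.035 with it). In the order of means, each group overlapped its neighbour except Thr and Gly, the lowest pair.

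Letter and level moved together for MFA1. In 10 of 10 groups the mean of libraries A and C was above that of B and D, and in 9 of 10 both A and C were above both B and D. The medians over the 10 groups were 117 normalized reads in A, 66.5 in B, 186 in C and 57.9 in D. The mean log2 difference between A and C and B and D was 0.96 ± 0.42 (SD over 10 groups), larger than for 99.5% of all genes tested. The same difference was 0.27 for AGA2, 0.20 for MFA2, 0.17 for ASG7, -0.01 for BAR1, -0.11 for STE6 and -0.13 for STE2. The split of A and C from B and D was not planned and follows the MFA1 medians. The rank of MFA1 on it is thus a description and not a test. Other splits of the letters were not ranked. The labels say no more of the letters than the word batch.

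**Figure D3:**
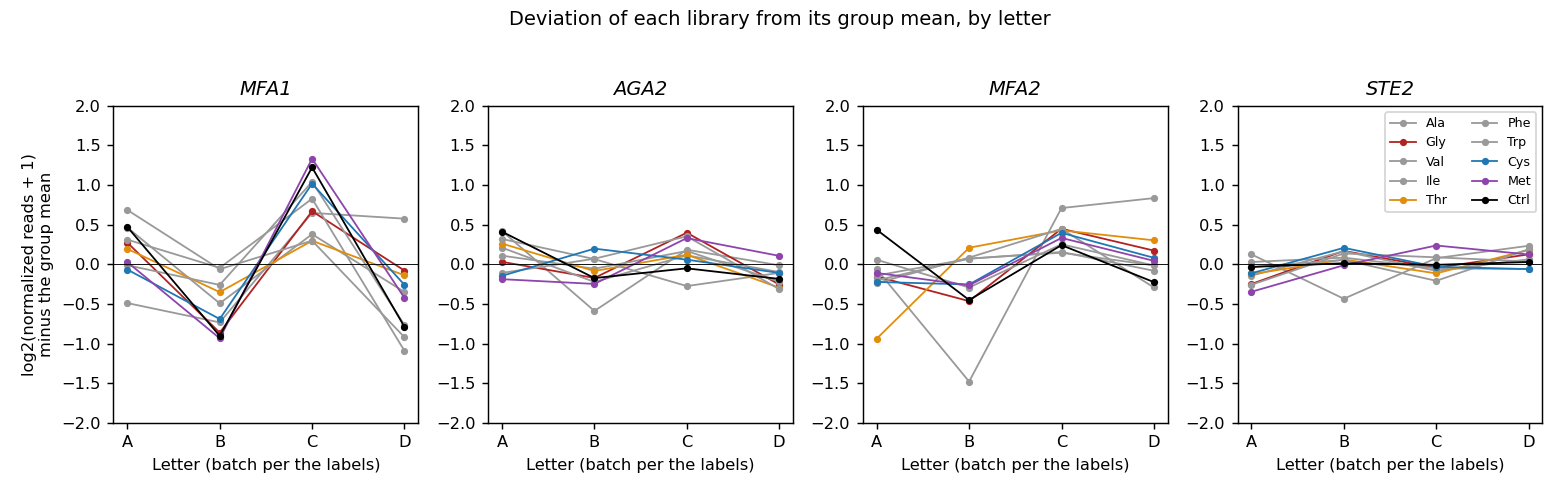
Each library's log2(normalized reads + 1) minus the mean of its group, by letter on the horizontal axis, with 1 line per group for MFA1, AGA2, MFA2 and STE2. MFA1 stands higher in A and C than in B and D in 10 of 10 groups, by 0.96 on the log2 scale on average, and STE2 shows a mean difference of -0.13.

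MFA2 encodes the other a-factor precursor and was the more abundant of the pair per coding length in 40 of 40 libraries, with a ratio to MFA1 of 1.74 to 8.24 (median 4.27). Gly libraries had 105, 84.5, 160.0 and 132 normalized reads, against 620.0, 335, 542 and 392 in Ctrl, with no overlap. MFA2 fell 3.89-fold in Gly (-1.96 ± 0.31, adjusted p = 1.09e-05; within letters -2.55 to -1.56). It is the exception among the 7 in that Gly did not lie below all other libraries, since Ala B had 97.9 and Thr A 120.0 normalized reads. Thr libraries had 120.0, 267, 311 and 285 normalized reads, all below Ctrl, and the fall of 1.98-fold (-0.99 ± 0.31) passed with an adjusted p of 0.0334. That call was lost without Thr A, where the MFA2 difference was -0.67 (adjusted p = 0.205), without Ctrl A (-0.84, adjusted p = 0.116) and without Ctrl C (-0.91, adjusted p = 0.0913). In Ala the values were 263, 97.9, 450.0 and 491, the widest spread of any group for MFA2, and the difference of -0.74 ± 0.31 had an adjusted p of 0.0505, which passed with the letter as a replicate block (adjusted p = 0.0195). Means in the other groups were 609 ± 133 in Cys, 535 ± 81.8 in Phe, 515 ± 127 in Trp, 494 ± 50.3 in Ile, 469 ± 44.7 in Val and 331 ± 60.5 in Met, and none of their differences from Ctrl passed.

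STE6 encodes the ABC transporter that exports a-factor, and it had the smallest fall of the 7 in Gly. Its libraries had 1600.1, 2101, 2004 and 2100.1 normalized reads in Gly, against 4215, 4402, 4221 and 4422 in Ctrl. Every Gly library lay below the other 36. The fall was 2.22-fold (-1.15 ± 0.10, adjusted p = 1.47e-11; within letters -1.40 to -1.07). Thr libraries had 2288, 2649, 2743 and 2772 normalized reads, and STE6 fell 1.66-fold there (-0.73 ± 0.10, adjusted p = 9.58e-07; within letters -0.88 to -0.62). STE6 was also lower than Ctrl in Ala, with 3017, 2748, 3203 and 3152 normalized reads (-0.51 ± 0.10, adjusted p = 5.86e-05). Over all genes 24.2% were lower in Ala, so that 1 of 7 is no more than the background.

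In Met STE6 had 2831, 3484, 3437 and 3777 normalized reads and was lower (log2 difference -0.36 ± 0.10, adjusted p = 0.0138), a call that was lost without Met A, where the STE6 difference was -0.28 (adjusted p = 0.0889). In Trp it had 2771, 3689.8, 3754 and 3641 and was lower (log2 difference -0.33 ± 0.10, adjusted p = 0.0213), the only 1 of 7 lower there, against 6.0% of all genes. That call was lost without Trp A, the low library (-0.22, adjusted p = 0.151), without Ctrl B (-0.32, adjusted p = 0.0557) and without Ctrl D (-0.32, adjusted p = 0.0526). STE6 in Val averaged 3555 ± 134 (-0.28 ± 0.10, adjusted p = 0.0879), with all 4 libraries below Ctrl, and passed with the letter as a replicate block (adjusted p = 0.0101). Means were 4473 ± 431 in Cys, 4089.5 ± 410.0 in Phe and 4031 ± 111 in Ile. No group had a mean of STE6 that passed as higher than Ctrl.

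STE2 encodes the receptor for alpha-factor and was the most abundant of the 7 per coding length. Gly libraries had 1978, 2642, 2279 and 2563 normalized reads, against 6826, 7050.3, 6954 and 7127 in Ctrl, where the 4 libraries lay close together. STE2 fell 2.97-fold in Gly (-1.57 ± 0.12, adjusted p = 2.12e-12; within letters -1.79 to -1.42), below the other 36 libraries. In Thr it had 3799, 4322, 3827 and 4695 normalized reads and fell 1.69-fold (-0.75 ± 0.12, adjusted p = 3.37e-05; within letters -0.86 to -0.60), with no overlap with Ctrl. In Met it had 3650.5, 4603, 5472 and 5058 and fell 1.5-fold (-0.59 ± 0.12, adjusted p = 0.00129; within letters -0.90 to -0.35), also with no overlap. STE2 and STE6 were the 2 of 7 genes lower in Met, against 3.74% of all genes. Cys libraries had 8761, 10944, 9272 and 9085 normalized reads, all above Ctrl, and STE2 was 1.36-fold higher there (0.44 ± 0.12, adjusted p = 0.0395). The Cys call was lost without Cys B (STE2 difference 0.37, adjusted p = 0.193), without Cys C (0.45, adjusted p = 0.0739), without Cys D (0.46, adjusted p = 0.0536) and without any 1 of the 4 Ctrl libraries (0.43 to 0.45, adjusted p = 0.0837 to 0.112), and with equal library totals (0.37, adjusted p = 0.0664). Means in the other groups were 8119.9 ± 930.0 in Phe, 7699.8 ± 367 in Ile, 6763 ± 655 in Val, 6612 ± 1241 in Ala and 5976 ± 695 in Trp, and none of these passed against Ctrl.

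AGA2 encodes the subunit of a-agglutinin that binds the partner cell, and it is tethered to the wall by the product of AGA1, which both mating types make. Gly libraries had 85.8, 74.4, 111 and 70.2 normalized reads, against 404, 269, 293 and 267 in Ctrl. The fall was 3.58-fold (-1.84 ± 0.18, adjusted p = 6.8e-10; within letters -2.22 to -1.39), and each Gly library lay below the other 36. Thr libraries had 215, 169, 195 and 146 normalized reads, all below Ctrl, a fall of 1.69-fold (-0.75 ± 0.18, adjusted p = 0.00431; within letters -0.90 to -0.58). In Cys AGA2 had 506, 642, 583 and 519 normalized reads, all above Ctrl, and rose 1.84-fold (0.88 ± 0.18, adjusted p = 0.0027). In Phe it had 618, 518, 409 and 459 and rose 1.63-fold (0.70 ± 0.18, adjusted p = 0.0118), a call lost without Phe A (AGA2 difference 0.60, adjusted p = 0.0698), without Ctrl B (0.65, adjusted p = 0.0502) and without Ctrl D (0.64, adjusted p = 0.055). Ile averaged 480.0 ± 65.3 (0.65 ± 0.18, adjusted p = 0.0518), and AGA2 passed there with the letter as a replicate block (adjusted p = 0.0128). Ala averaged 420.0 ± 115 (0.42 ± 0.18, adjusted p = 0.0538; 0.0228 with the replicate block), Val 404 ± 47.8, Trp 347 ± 68.9 and Met 341 ± 64.9.

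BAR1 encodes a secreted protease that degrades alpha-factor, and it separated Ctrl, Met, Thr and Gly without overlap. Gly libraries had 585, 544, 723 and 539 normalized reads, against 2854, 2767, 2713 and 2814 in Ctrl. BAR1 fell 4.69-fold (-2.23 ± 0.11, adjusted p = 1.23e-17; within letters -2.38 to -1.91), and every Gly library lay below the other 36. In Thr it had 1439, 1649, 1437 and 1353 normalized reads and fell 1.9-fold (-0.93 ± 0.11, adjusted p = 1.89e-07; within letters -1.06 to -0.75). Met libraries had 2298, 2565, 2567 and 2546, all below Ctrl, but the difference of -0.16 ± 0.11 did not pass (adjusted p = 0.385). Trp libraries had 3272, 4131, 4072 and 3948 normalized reads, all above Ctrl, and BAR1 was 1.38-fold higher (0.46 ± 0.11, adjusted p = 0.00514). In Ile the mean was 3696 ± 476, with all 4 libraries above Ctrl (0.40 ± 0.11, adjusted p = 0.0554; 0.0366 with the letter as a replicate block). Means were 3470.5 ± 572 in Cys, 3453 ± 357 in Phe, 3425 ± 481 in Val and 3199 ± 301 in Ala, and none of these passed against Ctrl.

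ASG7 encodes a protein that, in the newly formed zygote, helps end pheromone signalling through the G protein subunit Ste4. It was the least abundant of the 7 per coding length and passed against Ctrl in 7 of 9 comparisons. Gly libraries had 48.1, 40.6, 41.2 and 27.7 normalized reads, against 110.0, 109, 95.6 and 80.1 in Ctrl, a fall of 2.49-fold (-1.32 ± 0.16, adjusted p = 4.72e-08; within letters -1.50 to -1.17). Every Gly library lay below the other 36. Thr libraries had 65.4, 52.3, 64.8 and 53.5, all below Ctrl, a fall of 1.66-fold (-0.73 ± 0.16, adjusted p = 0.00138; within letters -1.05 to -0.55). Met libraries had 66.7, 79.1, 73.1 and 64.6, also all below Ctrl, and the difference of -0.46 ± 0.16 had an adjusted p of 0.053, which passed with the letter as a replicate block (adjusted p = 0.0162).

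ASG7 passed as higher than Ctrl in Cys, Phe, Ile, Trp and Ala. Cys libraries had 188, 174, 189 and 181 normalized reads, all above Ctrl, a rise of 1.86-fold (0.90 ± 0.16, adjusted p = 0.000322). Phe libraries had 194, 176, 172 and 119 (0.73 ± 0.16, adjusted p = 0.00197), and the call was just lost in a fit to Phe and Ctrl libraries alone (ASG7 adjusted p = 0.0502). Ile libraries had 160.0, 134, 179 and 141 (0.64 ± 0.16, adjusted p = 0.0183), with the call lost without Ile A (adjusted p = 0.0631), Ile C (0.0926) or Ctrl D (0.125) and with equal library totals (0.0616). These groups lay wholly above Ctrl. Trp libraries had 146, 127, 131 and 171 (0.54 ± 0.16, adjusted p = 0.019), with the call lost without Trp A (adjusted p = 0.052), Trp D (0.0919) or Ctrl D (0.0855). Ala libraries had 126, 144, 149 and 98.7, which overlapped Ctrl, and the adjusted p of 0.0444 (0.38 ± 0.16) rose above 0.05 in a fit to Ala and Ctrl alone (0.0793) and without Ala A (0.0661), Ala B (0.126), Ala C (0.143), Ctrl C (0.0822) or Ctrl D (0.165). Val averaged 131 ± 18.2 (0.41 ± 0.16, adjusted p = 0.136).

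In the order of group means, neighbouring groups overlapped in their libraries with few exceptions. Gly lay wholly below Thr for 6 of 7 genes, MFA2 being the exception. STE2 separated Ile from Ctrl, STE6 Ile from Val, AGA2 Ctrl from Thr, ASG7 Ctrl from Met, and MFA2 Val from Met. For MFA1 no other neighbours were apart. At the top of the order, Cys overlapped the next group for each of the 6 genes it led.

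Counted by amino acid, the genes that passed as higher than Ctrl were STE2, AGA2 and ASG7 in Cys (3 of 7, against 1.29% of all genes), AGA2 and ASG7 in Phe (2 of 7, against 3.7%), ASG7 in Ile (1 of 7, against 1.26%), BAR1 and ASG7 in Trp (2 of 7, against 6.32%) and ASG7 in Ala (1 of 7, against 23.1%). In Val 0 of 7 passed by limma, against 5.39% of all genes. Before adjustment, BAR1 (0.29), AGA2 (0.40) and ASG7 (0.41) were higher and STE6 (-0.28) lower in Val at a limma p under 0.05. The share of all genes at that unadjusted threshold is not given here, so these genes are not set against a background. All Gly libraries lay below all Ctrl libraries for 7 of 7 genes, against 11.2% of all genes, and below the other 36 libraries for 6 of 7, against 0.918%. Thr libraries lay below all Ctrl libraries for 6 of 7, against 10.4%, with MFA1 the exception, and Met libraries for 4 of 7, against 8.75%. Ile libraries lay above all Ctrl libraries for 4 of 7, against 3.97%, Cys libraries for 3 of 7, against 3.64%, and Phe libraries for 3 of 7, against 5.77%. In Ala, Val and Trp, and below Ctrl in Ile, the libraries stood apart from Ctrl in a given direction for at most 2 of 7 genes, against 4.33% to 20.2% of all genes. The count of genes lower in Gly than in Ctrl stayed at 7 under each alternative processing and when any 1 of the 8 Gly and Ctrl libraries was left out.

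**Figure D4:**
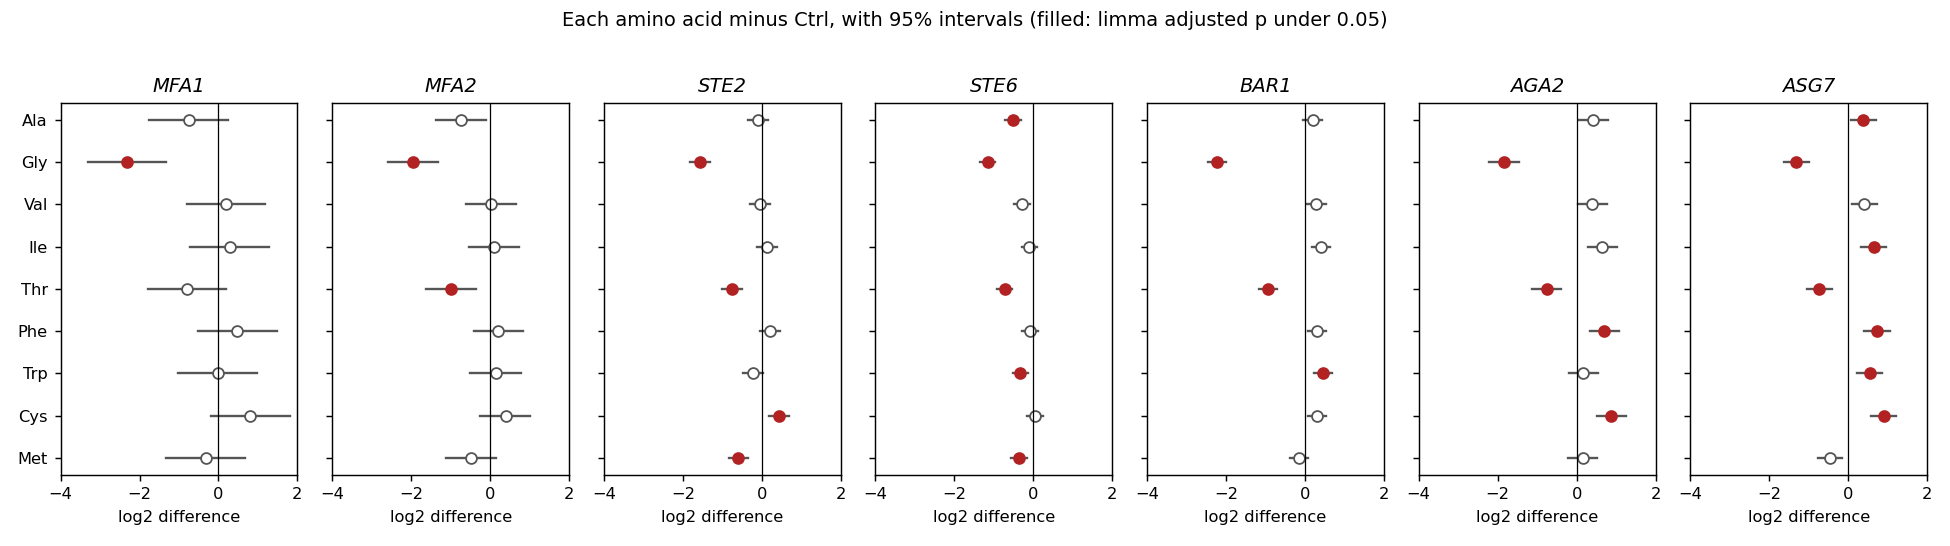
Log2 difference of each amino acid from Ctrl for the 7 genes, 1 panel per gene, with lines for 95% intervals and filled points where the limma adjusted p was under 0.05. Gly is filled and below 0 in 7 of 7 panels and Thr in 6 of 7, and MFA1 has the widest intervals.

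Without use of Ctrl, in the comparison of 1 amino acid with the mean of the 8 others, 7 of 7 genes were lower in Gly (against 11.6% of all genes). The log2 difference was -2.34 ± 0.08 for BAR1, -2.30 ± 0.37 for MFA1, -2.17 ± 0.14 for AGA2, -1.79 ± 0.23 for MFA2, -1.62 ± 0.12 for ASG7, -1.45 ± 0.09 for STE2 and -0.86 ± 0.07 for STE6 (limma adjusted p = 8.6e-06 or less for each). In Thr 6 of 7 were lower (against 5.55%), with ASG7 at -0.95 ± 0.12, AGA2 at -0.95 ± 0.14, BAR1 at -0.87 ± 0.08, STE2 at -0.53 ± 0.09, STE6 at -0.38 ± 0.07 and MFA2 near the threshold (-0.70 ± 0.23, adjusted p = 0.0467). The Thr call of MFA2 was lost when any 1 of 23 of the 36 libraries was left out (adjusted p = 0.0505 to 0.488), the highest p being that without Thr A, where the difference was -0.38. In Cys 7 of 7 were higher (against 17.2%), MFA1 by 1.22 ± 0.37, AGA2 by 0.89 ± 0.14, ASG7 by 0.87 ± 0.12, MFA2 by 0.85 ± 0.23, STE2 by 0.81 ± 0.09, BAR1 by 0.51 ± 0.08 and STE6 by 0.49 ± 0.07. The Cys call of MFA1 (adjusted p = 0.0102) was lost without Cys C, where the difference was 0.88 (adjusted p = 0.103). All 7 Cys calls held with Gly left out of the mean.

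The mean of the other 8 contains Gly, which lowers it for these genes. Against it, STE2, STE6, BAR1, AGA2 and ASG7 passed as higher in Ile (5 of 7, against 1.67%) and in Phe (5 of 7, against 3.98%), BAR1, AGA2 and ASG7 in Ala (3 of 7, against 24.7%), BAR1 and ASG7 in Trp (2 of 7, against 4.69%) and BAR1 in Val (1 of 7, against 2.38%). With Gly left out of the mean, an alternative chosen after seeing the data, BAR1 was the 1 gene that passed as higher in Ile (0.33, adjusted p = 0.0155) and in Trp (0.41, adjusted p = 0.00227), STE2, STE6, AGA2 and ASG7 kept their calls in Phe, and BAR1 did not pass in Phe (0.22, adjusted p = 0.107) or in Val (0.21, adjusted p = 0.167). In Ala no gene then passed as higher, and MFA2 (-0.65, adjusted p = 0.0208) and STE6 (-0.25, adjusted p = 0.00438) passed as lower. BAR1 then passed as lower in Met (-0.31, adjusted p = 0.0105). STE2 and ASG7 were lower in Met (2 of 7, against 6.96%), with log2 differences of -0.35 ± 0.09 for STE2 and -0.66 ± 0.12 for ASG7, and the STE2 call was lost without Met A (-0.23, adjusted p = 0.137).

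Over the 40 libraries the 21 pairs of the 7 genes correlated at r = 0.685 to 0.923, and over the 10 group means at 0.841 to 0.981 (median 0.924). Within groups, over deviations from the group means, the pairs lay at -0.429 to 0.777 (median 0.245). These are descriptions over libraries that share a treatment, a letter and a depth. The mean of the 7 genes was also compared with 5788 other genes with a mean of at least 20. FUS1, a membrane protein of cell fusion, was most like it (r = 0.949 over 40 libraries), then FAR1, the cell cycle inhibitor (0.929), GPA1, the G protein alpha subunit (0.917), SST2, which ends G protein signalling (0.910), SER3, an enzyme of serine synthesis (0.890), STE4, the G protein beta subunit (0.867), KAR4, a regulator of nuclear fusion (0.852), HXT1, a glucose transporter (0.846), AGA1 (0.846) and YER187W (0.843). Of these 10 genes, 7 are among the 37 genes of the pheromone response and pheromone-induced lists, out of 6103 genes tested. How many of the 37 were among the 5788 candidates is not given here. Within groups the likeness was weaker, from -0.0695 for SST2 to 0.51 for SER3 among these 10 genes, with 0.414 for FUS1. The 5 genes least like the mean were CHA1, a serine and threonine deaminase (r = -0.919), ICS2 (-0.872), YLL053C (-0.838), SMF1, a manganese transporter (-0.830), and AQY2, an aquaporin (-0.816). The Mcm1 core described above stood before 2 of the 10 most like genes, FAR1 and GPA1, and TGAAACA before 5.

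**Figure D5:**
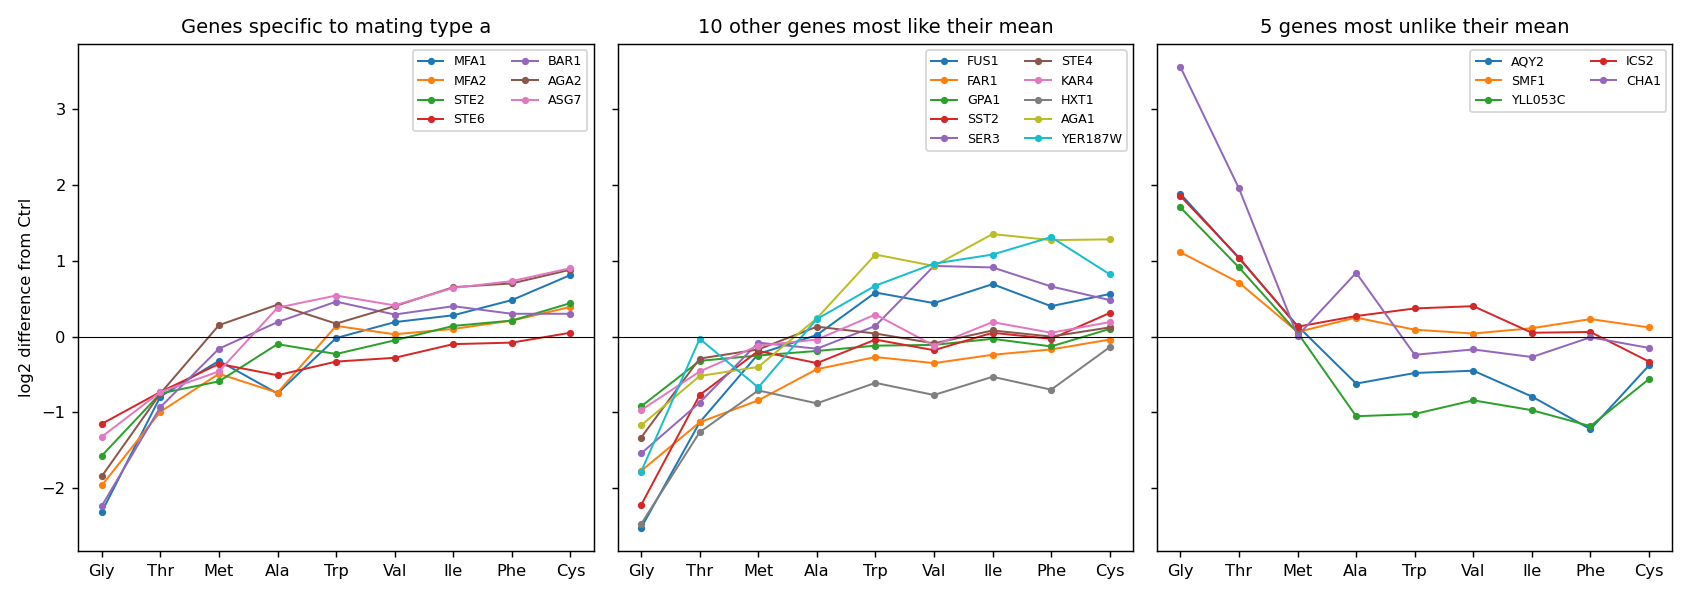
Log2 difference from Ctrl in each amino acid, ordered by the median of the 7 genes, for the 7 a-specific genes, the 10 other genes most like their mean and the 5 most unlike it. The 7 genes run from -1.15 to -2.31 in Gly, FUS1 stands at -2.52 there and CHA1 at 3.55.

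Genes of the enzymes that mature a-factor were lower in part. Beside the falls of -2.31 ± 0.49 for MFA1 and -1.96 ± 0.31 for MFA2 in Gly, 5 of 7 of these enzyme genes were lower there, against 12.2% of all genes, with AXL1, the protease that makes the last cut, at -0.64 ± 0.09, STE24, a protease, at -0.51 ± 0.13, STE14, which methylates a-factor, at -0.50 ± 0.16 and RAM1, a farnesyltransferase subunit, at -0.34 ± 0.10 (adjusted p = 0.0156 or less for each). In Thr 2 of 7 were lower, against 5.33% of all genes, STE24 (-0.38 ± 0.13, adjusted p = 0.0484) and AXL1 (-0.31 ± 0.09, adjusted p = 0.0223). In Ala 2 of 7 were also lower, against 24.2% of all genes. Whether these differences are smaller than those of MFA1 and MFA2 was not tested.

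Downstream of the STE2 receptor, 10 of 19 genes of the pheromone response pathway were lower in Gly, against 12.2% of all genes, and 1, DIG2, was higher. SST2 was at -2.22 ± 0.11, FAR1 at -1.77 ± 0.08, STE4 at -1.33 ± 0.09 and GPA1 at -0.92 ± 0.06 (adjusted p = 1.24e-13 or less). Of 18 pheromone-induced mating genes tested, 6 were lower, among them FUS1 at -2.52 ± 0.16, AGA1 at -1.17 ± 0.27, KAR4 at -0.97 ± 0.13 and PRM4 at -0.68 ± 0.19, and PRM5 was higher. In Thr 5 of 19 pathway genes were lower, against 5.33% of all genes, with FAR1 at -1.13 ± 0.08 and SST2 at -0.77 ± 0.11, and 2 of 18 induced genes, FUS1 (-1.13 ± 0.16) and KAR4 (-0.46 ± 0.13). PRM5, which also responds to cell wall stress, was higher in Thr by 1.45 ± 0.13. The count in Ala equalled that in Gly, with 10 of 19 pathway genes lower and 1 higher, against 24.2% and 23.1% of all genes, although 1 of the 7 a-specific genes was lower in Ala and 1 higher. The differences in Ala were -0.35 ± 0.11 for SST2, -0.43 ± 0.08 for FAR1 and -0.19 ± 0.06 for GPA1, and STE4 did not pass (0.13 ± 0.09, adjusted p = 0.226). Of the 18 induced genes, 5 were higher and 1 lower in Ala. Among the regulators of the 7 genes, MCM1 itself was at -0.38 ± 0.15 in Gly (adjusted p = 0.0509) and -0.22 ± 0.15 in Thr (adjusted p = 0.364), neither of which passed. The corepressor gene CYC8 was lower in Gly (-0.38 ± 0.14, adjusted p = 0.0383), and its partner TUP1 was at -0.37 ± 0.16 (adjusted p = 0.0798). These 3 genes were lower in Ala, MCM1 by a log2 difference of -0.88 ± 0.15 (adjusted p = 1.08e-05), TUP1 of -0.68 ± 0.16 (adjusted p = 0.000615) and CYC8 of -0.65 ± 0.14 (adjusted p = 0.000301). MCM1 averaged 751 ± 179 normalized reads in Ala, 1046.8 ± 159 in Gly and 1170.3 ± 187 in Thr, against 1364.5 ± 203 in Ctrl (SD, n = 4 each). The median log2 difference of the 7 a-specific genes was -0.10 in Ala, against -1.84 in Gly. These are RNA levels, and the activity of the Mcm1 protein was not measured. Whether the levels of MCM1, TUP1 or CYC8 bear on those of the 7 genes was not tested.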

How the data were processed

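Per the labels' protocols, RNA was extracted with a MasterPure yeast kit and strand-specific libraries were made from its poly(A) fraction with a NEBNext kit. Per the submitters' processing notes the tools included Partek and STAR 2.7.8a, each with no stated role. Genome build, annotation and strand setting: not given in the sources used here. The deposited values are normalized read counts per gene and library, a signal with no value below 0. The value of 1 read in each library was estimated from the values, which gave the estimated depths. Of each library's values above 0, with the highest left out, 88.2 to 90.9% were whole multiples of it within 0.1 read. No count test was run. The choice of normalization factors is not described.

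limma 3.58.1 (R 4.3.3) was run on log2(value + 1) with a trended variance and a mean for each group over 40 libraries, without a block. Genes whose mean reached 5 were tested, and p-values were adjusted by Benjamini-Hochberg over 6103 genes with a threshold of 0.05. This scale understates the change of low genes. Steps were tested on simulated data. Other settings tried were the letter as a replicate block, the compared groups alone, each library left out, equal library totals, median-of-ratios scaling, no low-value filter and pseudocounts of 4 and 0.25. The labels call the letters batches, which pairs libraries across groups; library deviations had a mean correlation of 0.174 within a letter and -0.0576 between letters. Nothing says whether cultures were separate, so p-values reflect only the spread among these samples, possibly a technical one.

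Motifs were searched in the 600 bases before each start codon of the RefSeq R64 genome. This window, the TTNCC form of the core and its 7-base flanks were chosen after the data were seen. In the 600 bases, the planned fixed spacing of TGT and ACA was met in 4 of 7 genes, against 7 of 6024 (0.116%). The 7 genes and the gene lists were chosen with earlier results of these data known. Named genes are the 7, up to 4 called genes of largest difference per list, and the 10 most and 5 least like their mean. DIG2, PRM5, MCM1, TUP1, MF(ALPHA)2, SAG1, SIR4 and ORC1 fall outside this rule and were named after their values were seen. MF(ALPHA)1, too low to be tested, also falls outside it. HML, MAT and HMRA2 genes were not analysed here. HMRA1 was tested, as 1 of 4 regulators with MCM1, TUP1 and CYC8, and passed in no comparison with Ctrl. It had 92.4 to 202 normalized reads over the 40 libraries, with a median of 127, and was also named outside the rule.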

Additional observations from a re-analysis of the deposited data

Results flagged for a closer look

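Of 70 sets of 4 libraries (7 genes in 10 groups), 5 held a library far from the other 3, by a gap that chance gives in about 1 in 20 sets. STE6 had 2771.0 normalized reads in Trp A, against 3641 to 3754 in the other Trp libraries. The other 4 sets were all of BAR1. BAR1 had 2748 normalized reads in Ala B, against 3329 to 3362 in the other Ala libraries, and 2919.6 in Phe B, against 3591 to 3679 in the other Phe libraries. It had 2298 in Met A, against 2547 to 2567 in the other Met libraries, and 4407 in Ile D, against 3403 to 3515 in the other Ile libraries. No gene had such a library in Gly, Thr, Val, Cys or Ctrl.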

How the results depend on the processing

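All 7 genes passed as lower in Gly against Ctrl in all settings run, those without 1 of the 8 Gly and Ctrl libraries included. Several of the other counts moved. In the main fit 47.2% of all genes passed in Ala against Ctrl and 50.7% against the mean of the other 8. These shares were 5.39% and 6.49% in Val and 1.92% and 5.36% in Ile. The shares of all genes under the other settings are not given here, so the counts below have no background of their own. With equal library totals 4 genes passed in Ala, 1 in Val and 0 in Ile, and this scaling shifted the all-gene median of Ala by more than 0.1 on the log2 scale (to 0.181 for members changed in Ala against Ctrl and 0.19 for members changed in Ala against the mean of the other 8). With the letter as a replicate block 5 passed in Ala, 1 in Val and 3 in Ile against Ctrl, and 6 in Ala and 4 in Val against the mean of the other 8; beyond the calls given above, the paired fit added, against that mean, MFA1 (-0.54, adjusted p = 0.041), STE2 (0.20, adjusted p = 0.0441) and STE6 (-0.14, adjusted p = 0.0253) in Ala, STE2 (0.26, adjusted p = 0.0492), AGA2 (0.35, adjusted p = 0.0464) and ASG7 (0.32, adjusted p = 0.0341) in Val, and MFA1 (0.84, adjusted p = 0.012) and MFA2 (0.65, adjusted p = 0.0274) in Phe. With the compared groups alone 1 passed in Ala, 1 in Val, 3 in Ile and 1 in Phe, and with a pseudocount of 4, 2 in Ile. With Gly left out of the mean of the others 0 passed in Val, 1 in Ile and 1 in Trp. Without 1 library at a time, against Ctrl, 1 to 3 passed in Ala, 0 to 2 in Ile, 1 to 2 in Phe, 1 to 3 in Trp and 1 to 3 in Met, and against the other 8, 1 to 4 in Ala, 1 to 2 in Trp and 1 to 2 in Met. The cause of these shifts was not tested.

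Differences that changed sign had not passed. With equal totals these were, against Ctrl, STE2 in Ala (0.09), MFA2 in Val (-0.02) and STE6 in Cys (-0.02), and against the other 8, STE6 in Ala (0.05), MFA1 in Met (0.00) and BAR1 in Met (0.05). With Gly left out they were MFA1 (-0.01), STE2 (-0.13), STE6 (-0.04) and AGA2 (-0.18) in Trp and STE6 (-0.08) and AGA2 (-0.21) in Met. Without 1 library, differences from Ctrl spanned 0 for MFA1 in Ile (-0.02 to 0.69), Met (-0.77 to 0.09), Trp (-0.37 to 0.38) and Val (-0.11 to 0.60), MFA2 in Ile (-0.05 to 0.25), Trp (-0.01 to 0.28) and Val (-0.12 to 0.17), STE2 in Ala (-0.18 to 0.04) and STE6 in Cys (-0.01 to 0.10). Differences from the other 8 did so for AGA2 in Met (-0.04 to 0.15) and Trp (-0.02 to 0.20), BAR1 in Met (-0.02 to 0.03), MFA1 in Met (-0.50 to 0.25) and Trp (-0.07 to 0.53), MFA2 in Ala (-0.69 to 0.08) and STE6 in Met (-0.02 to 0.12). Depth limits MFA1 most, with as few as 6 estimated reads in a Gly library.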

Other observations

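STE3, the receptor for a-factor made by alpha cells, was low in all libraries but passed as higher than Ctrl in 7 of 9 amino acids, by 0.88 ± 0.27 (SE) on the log2 scale in Gly, 1.16 ± 0.27 in Thr and 2.10 ± 0.27 in Trp, and not in Cys (-0.25 ± 0.27) or Met (0.53 ± 0.27). Of the other 3 alpha-specific genes, MF(ALPHA)1 was too low to be tested, with a mean of 2.77 normalized reads. The remaining pair did not pass in Gly or Thr, where MF(ALPHA)2 differed from Ctrl by 0.08 and 0.09 and SAG1 by -0.21 and -0.12.

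Other gene lists tied to Mcm1 or to mating type were lower in part, in Ala as well as in Gly and Thr. Over all genes tested, 24.2% were lower in Ala, 12.2% in Gly and 5.33% in Thr, and 5.87% were higher in Thr. Of 9 genes read from the early cell cycle box, 7 were lower in Ala, 6 in Gly, 4 in Met (against 3.74% of all genes), 3 in Thr, 3 in Val (against 2.88%) and 3 in Trp (against 6.0%), among them CDC6 in Gly (-0.71 ± 0.16), which licenses replication origins, and the cyclin gene CLN3 in Ala (-1.43 ± 0.17), in Gly (-0.70 ± 0.17) and in Thr (-0.71 ± 0.17). Of 12 targets of Mcm1 with Fkh2, 11 were lower in Ala, 9 in Thr and 7 in Gly, with the polo kinase gene CDC5 at -0.61 ± 0.09 in Ala, -0.62 ± 0.09 in Gly and -0.77 ± 0.09 in Thr and the cyclin gene CLB2 at -0.93 ± 0.10 in Ala, -0.60 ± 0.10 in Gly and -0.68 ± 0.10 in Thr. CLB1 was higher in Gly (0.58 ± 0.13). The median log2 difference was -0.10 in Ala, -1.84 in Gly and -0.75 in Thr for the 7 a-specific genes, and -0.39 in Ala, -0.33 in Gly and -0.62 in Thr for those 12. Of 11 haploid-specific genes, 6 were lower in Gly, in Ala 5 were lower and 1 higher, and in Thr 4 were lower and 3 higher. Most of these 11 genes were already counted above, in the pheromone response pathway or among the enzymes that mature a-factor. The 4 lower in Thr, FAR1, GPA1, STE4 and AXL1, are all such genes. The 3 higher in Thr are not: HO, the mating type switching endonuclease, by 2.03 ± 0.15, RDH54 by 0.71 ± 0.08 and RME1 by 0.66 ± 0.16. Of 9 genes that silence the mating type cassettes, in Ala 4 were lower and 1 higher. In Gly 2 were lower, SIR2 (-0.34 ± 0.10) and SUM1 (-0.30 ± 0.09), a share of 22.2%. None passed in Thr by limma, where SIR4 (unadjusted p = 0.0134) and ORC1 (unadjusted p = 0.0119) were under 0.05 before adjustment. The share of all genes at that unadjusted threshold is not given here, so SIR4 and ORC1 are not set against a background. The part of the genes of these lists in the levels of the a-specific genes was not tested.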
